A study of Mus musculus with 9 samples.

Results

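The genes described here are 9 that endothelial cells use to start, hold back or dissolve a blood clot: *Vwf*, *F8*, *Thbs1*, *F3*, *Tfpi*, *Thbd*, *Procr*, *Plat* and *Plau*. They were taken by symbol from the 37104 loci of the expression tables, and each symbol stood at a single locus, so that all 9 could be followed in every library. The RNA came from primary murine lung endothelial cells (MLEC) of adult C57BL/6J mice, 10 to 12 weeks old, and was sequenced as 3 libraries for each of 3 groups. ECtrl cells carried the *Cdh5-Cre* transgene and wild-type *Jnk1* and *Jnk2*. EfCtrl cells had no Cre but were homozygous for LoxP-flanked *Jnk1* and *Jnk2*. E3KO cells combined *Cdh5-Cre* with the same floxed alleles, so that both genes could be recombined where the VE-cadherin promoter had been active. The *Jnk3-/-* genotype was shared by all 3 groups, so neither control was wild type for JNK. Each library was an independent isolation from the pooled lungs of several mice, selected with ICAM2 antibody on beads and grown in culture, and the values are therefore those of cultured cells in medium that contained heparin. In such bulk RNA, fewer cells of a type and less RNA per cell cannot be told apart.

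Coagulation starts when factor VII in plasma meets tissue factor, the product of *F3*, and quiescent endothelium normally keeps that protein off its surface. The vessel lining restrains clotting in several ways. Tissue factor pathway inhibitor (*Tfpi*) blocks the tissue factor complex and factor Xa. Thrombomodulin (*Thbd*) binds thrombin and turns it toward protein C, which the endothelial protein C receptor (*Procr*) presents to it. Von Willebrand factor (*Vwf*) is stored in endothelial granules, tethers platelets and carries factor VIII (*F8*) in plasma, and thrombospondin-1 (*Thbs1*) is a matrix and platelet glycoprotein that limits angiogenesis. Tissue-type (*Plat*) and urokinase-type (*Plau*) plasminogen activators make plasmin, which dissolves fibrin. JNK phosphorylates the Jun proteins of the transcription factor AP-1.

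The values are FPKM, read fragments scaled to transcript length and library size, so they can be compared between genes. Of the targeted genes, *Mapk9* was lower in all 3 E3KO libraries, whereas *Mapk8* did not mark them alike. *Mapk9*, the gene of JNK2, was at 27.8 ± 7.21 FPKM (SD, n = 3) in E3KO and 46.5 ± 2.99 (SD, n = 6) in the controls, a log2 change of -0.75 (limma, adjusted p = 0.0359). It measured 27.6, 35.1 and 20.7 FPKM in E3KO replicates 1, 2 and 3, all below the 42.7 to 50.9 of the controls. *Mapk8*, the gene of JNK1, was at 8.77 and 4.65 FPKM in E3KO replicates 2 and 3 and at 20.7 in the library labelled E3KO replicate 1, above the 14.0 to 17.9 of the controls. *Mapk10*, the gene of JNK3, did not exceed 0.270 FPKM in any library. In the library labelled E3KO replicate 1 the 10 highest symbols took 96.4% of all FPKM, against 40.9% to 56.8% elsewhere, and 8 lung epithelial markers summed to 51.3 FPKM, against 2.55 to 6.05 elsewhere. Of these, 46.2 FPKM were *Scgb1a1*, and *Cdh1*, *Krt8*, *Krt18* and *Sftpb* were not above their range in the other libraries. The main differences are therefore also given without this library. Every library expressed the pan-endothelial markers. All 11 of 11 were above the minimum used for the test. They summed to 2926 to 3728 FPKM across the control libraries and 3695 to 4127 in E3KO. The 1 called higher was *Emcn*, named after its values were seen, at 822 to 1095 FPKM across the controls and 1452 to 1557 in E3KO. The other 10 were not called, and for each of them the E3KO libraries overlapped the controls.

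Promoter windows in RefSeq (build GRCm38.p6) were at hand for *Procr*, *Tfpi*, *F3* and *F8*. A window runs from 250 bases before to 50 bases after an annotated transcript start. The windows of the called gene *Tfpi*, of *Procr* and of *F3* are shown because JNK acts on AP-1 and the 3 genes differ in the AP-1 word TGANTCA. Capitals mark this word, the related CRE word TGACGTCA and the ETS word AGGAAG on either strand, written as the printed strand reads. ETS factors regulate many endothelial genes. The *Procr* window lies at chr2:155750967-155751266 on the plus strand. The first *Tfpi* window lies at chr2:84476710-84477009 and the second, from an alternative start, at chr2:84474125-84474424, both on the minus strand. The *F3* window lies at chr3:121723287-121723586 on the plus strand.
Procr: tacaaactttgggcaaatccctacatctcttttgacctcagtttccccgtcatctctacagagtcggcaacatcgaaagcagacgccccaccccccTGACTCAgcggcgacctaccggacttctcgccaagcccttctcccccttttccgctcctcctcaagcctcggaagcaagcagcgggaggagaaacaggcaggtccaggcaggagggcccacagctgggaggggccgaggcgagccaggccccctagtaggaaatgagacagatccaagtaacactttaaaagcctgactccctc
Tfpi start 1: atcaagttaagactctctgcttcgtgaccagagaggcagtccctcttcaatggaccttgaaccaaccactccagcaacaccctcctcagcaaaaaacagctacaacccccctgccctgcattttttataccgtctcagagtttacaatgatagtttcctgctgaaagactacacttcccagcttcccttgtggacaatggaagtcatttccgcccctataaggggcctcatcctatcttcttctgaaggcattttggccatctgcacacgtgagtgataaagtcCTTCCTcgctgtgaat
Tfpi start 2: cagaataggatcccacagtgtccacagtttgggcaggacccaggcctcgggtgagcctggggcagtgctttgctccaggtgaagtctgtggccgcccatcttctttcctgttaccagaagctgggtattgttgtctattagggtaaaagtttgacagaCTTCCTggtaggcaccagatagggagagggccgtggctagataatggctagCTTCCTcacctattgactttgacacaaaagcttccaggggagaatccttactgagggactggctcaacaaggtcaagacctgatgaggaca
F3: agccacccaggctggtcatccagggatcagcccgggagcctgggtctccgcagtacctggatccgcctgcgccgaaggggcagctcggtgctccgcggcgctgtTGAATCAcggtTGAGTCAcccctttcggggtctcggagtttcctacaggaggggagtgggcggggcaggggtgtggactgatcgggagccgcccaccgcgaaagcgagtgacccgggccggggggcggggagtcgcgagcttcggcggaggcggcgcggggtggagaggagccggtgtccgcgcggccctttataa

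The TGANTCA word occurred once in the *Procr* window, 154 bases upstream of the start, and 2 times in the *F3* window, 146 and 135 bases upstream. Neither *Tfpi* window and not the *F8* window held it. Of all 32851 RefSeq promoter windows of this length, 7.81% held TGANTCA on either strand. The AGGAAG word was found 1 time in the first and 2 times in the second *Tfpi* window, and in 35.4% of all windows. No printed window held TGACGTCA, which 1.79% of all windows held. The *F3* window also carried 3 GC boxes (GGGCGG, in 35.7% of all windows, either strand), each *Tfpi* window carried 1 and the *Procr* window 0. The *F3* window was richer in GC, at 70.3%, than the *Procr* window at 58.3% and the *Tfpi* windows at 48.0% and 52.3%. The median of all windows was 52.7%. These letters describe the windows and say nothing of binding in these cells.

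The levels of the 9 genes lay far apart, and their order was nearly the same in every library. *Plau* was the highest at 989 FPKM over 9 libraries, followed by *Thbs1* at 436, *Procr* at 158, *Tfpi* at 74.2, *Plat* at 46.2 and *Thbd* at 45.2. *F8* followed at 7.34, and *Vwf* at 1.32 and *F3* at 0.762 were lowest. The order *Plau*, *Thbs1*, *Procr*, *Tfpi* held in 9 of 9 libraries, as did *Thbd* over *F8* and *F8* over *Vwf*. The remaining neighbours did not keep their order throughout. *Tfpi* exceeded *Plat* in 8 of 9 libraries and *Vwf* exceeded *F3* in 8 of 9. *Plat* exceeded *Thbd* in 5 of 6 control libraries and in 1 of 3 E3KO libraries. *Vwf*, often used to define endothelial cells, was thus near the bottom in every group, and *Vwf* and *F3* missed the minimum of 2 FPKM in a group mean that was set for the test, so that 7 of 9 genes were tested.

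**Figure D1:**
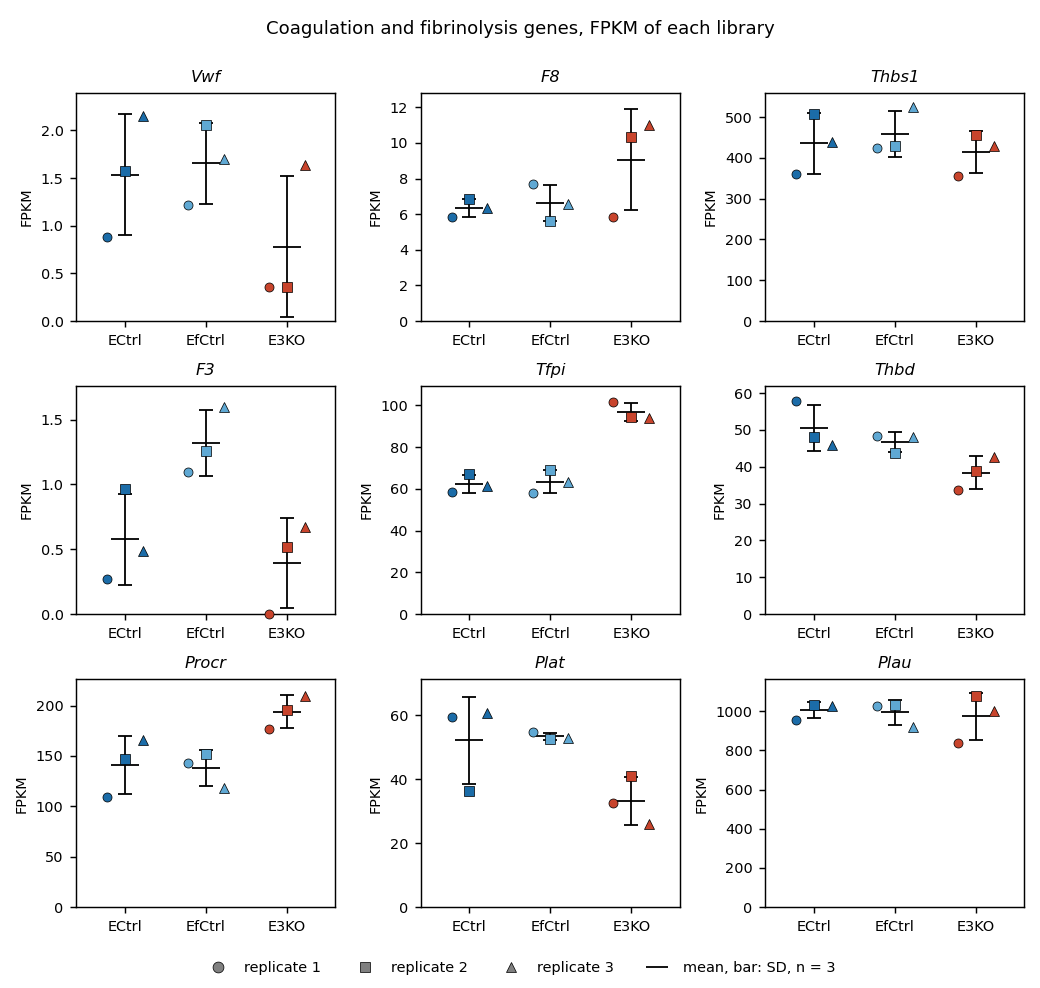
FPKM of the 9 genes (vertical axis, from 0) in the 3 libraries of ECtrl, EfCtrl and E3KO; symbols mark the replicate and black bars the mean and SD of 3 libraries. The E3KO libraries lie above all 6 control libraries for *Tfpi* and *Procr* and below all 6 for *Thbd*, and they overlap the controls for the other 6 genes.

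*Tfpi* (chr2:84432855-84476775, build mm10, minus strand) was the 1 gene of the 7 tested that passed the test. It measured 58.7, 67.2 and 61.6 FPKM in ECtrl, 58.0, 69.3 and 63.1 in EfCtrl and 101.8, 94.3 and 94.1 in E3KO. Every E3KO library lay well above every control library, and the controls lay together. The E3KO mean of 96.7 ± 4.41 (SD, n = 3) was 1.54 times the control mean of 63.0 ± 4.52 (SD, n = 6). *Tfpi* rose by 0.61 in log2(FPKM + 1) (SE 0.09, limma, adjusted p = 0.0162 over 10605 genes). Against ECtrl alone the difference was 0.62 (limma, adjusted p = 0.0338), and against EfCtrl alone it was 0.60 (limma, adjusted p = 0.0506), just over the threshold. Exact two-sided permutation of the 9 libraries gave p = 0.0119, the smallest that the 84 splits of 3 against 6 allow. Without the library labelled E3KO replicate 1 the difference was 0.58 (limma, adjusted p = 0.0337). The call against both controls was lost without EfCtrl replicate 3 (0.61, limma, adjusted p = 0.0531) and without E3KO replicate 3 (0.63, limma, adjusted p = 0.0759). Against ECtrl it was lost in 8 of the 9 fits with a library left out, in which the difference was 0.58 to 0.64.

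*Procr* (chr2:155751117-155755471, plus strand), the receptor that brings protein C to thrombomodulin, had E3KO values above every control but a wider spread. It measured 109, 147 and 166 FPKM in ECtrl, 143, 152 and 118 in EfCtrl and 177, 195 and 210 in E3KO. The lowest E3KO library exceeded the highest control by little, and the controls themselves covered a broad range. The means were 194.0 ± 16.2 (SD, n = 3) and 139 ± 21.5 (SD, n = 6), a ratio of 1.39. The log2 difference of 0.49 (95% interval 0.14 to 0.83) did not pass the test (limma, adjusted p = 0.108), and the exact permutation p was 0.0238. Against ECtrl it was 0.48 (limma, adjusted p = 0.188) and against EfCtrl 0.50 (limma, adjusted p = 0.203). Without the library labelled E3KO replicate 1 it was 0.55 (limma, adjusted p = 0.126).

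*Thbd* (chr2:148404471-148408188, minus strand) differed in the opposite direction. Thrombomodulin RNA measured 57.7, 48.0 and 46.0 FPKM in ECtrl, 48.4, 43.7 and 48.0 in EfCtrl and 33.6, 39.0 and 42.7 in E3KO. The highest E3KO value lay just under the lowest control value, so the groups did not overlap but nearly touched. The means were 38.4 ± 4.58 (SD, n = 3) and 48.6 ± 4.80 (SD, n = 6), a ratio of 0.790. The log2 difference was -0.33 (95% interval -0.60 to -0.07, limma, adjusted p = 0.134), with the smallest exact permutation p, 0.0119. It was -0.39 against ECtrl (limma, adjusted p = 0.162) and -0.28 against EfCtrl (limma, adjusted p = 0.317). Without the library labelled E3KO replicate 1, which held the lowest value, it was -0.24 (limma, adjusted p = 0.249). *Thbd* and *Procr*, which act on the same protein C pathway, thus had E3KO values on opposite sides of the control range, though neither passed the test across all genes.

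Tissue factor was barely detected. *F3* (chr3:121723537-121735052, plus strand) measured 0.274, 0.964 and 0.488 FPKM in ECtrl, 1.10, 1.26 and 1.59 in EfCtrl, and 0.515 and 0.669 in E3KO replicates 2 and 3, and it was listed at 0 in the library labelled E3KO replicate 1. Every EfCtrl library lay above every library of the other groups, while E3KO and ECtrl overlapped. The difference between E3KO and the 6 controls gave an exact permutation p of 0.131. Without the minimum on low values the log2 difference was -0.47 against both controls (limma, unadjusted p = 0.0486, adjusted p = 0.290), -0.19 against ECtrl (limma, adjusted p = 0.778) and -0.76 against EfCtrl (limma, unadjusted p = 0.0127, adjusted p = 0.226). EfCtrl minus ECtrl was 0.57 (limma, unadjusted p = 0.0407, adjusted p = 1.0). The difference against both controls was -0.25 without the library labelled E3KO replicate 1, which holds the 0 (exact permutation p = 0.464). Of 12 smooth muscle and fibroblast markers, cells in which *F3* is also expressed, 6 passed the minimum and 0 were called by limma, with 3 at an unadjusted p under 0.05. Their summed level was 13.4 to 49.1 FPKM in ECtrl, 28.0 to 83.3 in EfCtrl and 12.5 to 26.3 in E3KO, and their part in the *F3* values was not tested.

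*Vwf* (chr6:125546774-125686679, plus strand) was also low. It measured 0.881, 1.57 and 2.15 FPKM in ECtrl, 1.21, 2.06 and 1.70 in EfCtrl and 0.356, 0.356 and 1.63 in E3KO. E3KO replicates 1 and 2 lay below every control, and E3KO replicate 3 lay within the control range. The E3KO mean of 0.781 ± 0.736 (SD, n = 3) was 0.490 of the control mean of 1.60 ± 0.488 (SD, n = 6). The exact permutation p was 0.0714 with a pseudocount of 1 and 0.0476 with a pseudocount of 0.1, so the side of 0.05 depended on how low values were weighted. Without the minimum on low values the log2 difference was -0.59 (95% interval -1.22 to 0.03, limma, adjusted p = 0.321). The difference without the library labelled E3KO replicate 1 was -0.44 (exact permutation p = 0.179, of 28 splits). Platelets also hold von Willebrand factor and thrombospondin-1. Of 8 platelet and megakaryocyte markers 2 passed the minimum and 0 were called by limma (1 at an unadjusted p under 0.05), *Gp6* was at 0 in all 9 libraries, and their sum was 4.01 to 7.13 FPKM across the control libraries and 3.23 to 6.49 in E3KO. The 2 tested are named after their values were seen. *Pf4* was at 0.204 to 2.19 FPKM across the controls and 1.54 to 4.08 in E3KO. *Gp1bb*, whose row is shared with *Sept5*, was at 1.99 to 3.65 and 0.660 to 1.67. The part of platelets in the *Vwf* values was not tested.

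*F8*, the gene of the coagulation factor that von Willebrand factor carries, was split within E3KO. It measured 5.84, 6.84 and 6.35 FPKM in ECtrl, 7.67, 5.64 and 6.57 in EfCtrl and 5.82, 10.3 and 11.02 in E3KO. E3KO replicates 2 and 3 exceeded every control, whereas the library labelled E3KO replicate 1 lay among the lowest. With all libraries the log2 difference was 0.39 (95% interval -0.04 to 0.82, limma, adjusted p = 0.252) and the exact permutation p was 0.0833. Without the library labelled E3KO replicate 1 it was 0.65 (limma, adjusted p = 0.0379), so a single library decided this call. The differences against each control were then 0.67 (limma, adjusted p = 0.0561) and 0.62 (limma, adjusted p = 0.0828). The deposited locus (chrX:75172715-75396459) also spans *Fundc2* and the pseudogenes *Gm6039* and *Gm8522*. *Fundc2*, which overlaps the 5′ end of *F8* on the other strand and is listed on its own, was at 40.1 to 51.7 FPKM across the control libraries and 39.3 to 49.8 in E3KO (log2 difference -0.09, limma, adjusted p = 0.669). Strandedness of the libraries is not given in the sources used here, so reads of the shared stretch cannot be assigned.

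*Thbs1* (chr2:118111876-118127133, plus strand) did not differ beyond the spread of its libraries. It measured 359, 508 and 439 FPKM in ECtrl, 424, 430 and 524 in EfCtrl and 356, 457 and 430 in E3KO, and the groups overlapped throughout. The log2 difference was -0.11, with a 95% interval of -0.44 to 0.22 (limma, adjusted p = 0.669). Its locus contains the lincRNA *Gm29233* on the opposite strand, from which its reads cannot be told apart without strand.

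Of the plasminogen activators, *Plat* had E3KO values toward the low end and *Plau* did not. *Plat* (chr8:22757744-22782847, plus strand) measured 59.5, 36.4 and 60.5 FPKM in ECtrl, 54.6, 52.6 and 52.8 in EfCtrl and 32.4, 40.9 and 25.8 in E3KO. All E3KO libraries lay below 5 of the 6 controls, and the overlap came from ECtrl replicate 2 at 36.4, far under the other 5. The E3KO mean of 33.1 ± 7.55 (SD, n = 3) was 0.627 of the control mean of 52.7 ± 8.68 (SD, n = 6). The log2 difference of -0.66 (95% interval -1.11 to -0.22) was the widest among the 7 tested genes but did not pass the test (limma, adjusted p = 0.0933). The exact permutation p was 0.0238. Against ECtrl it was -0.63 (limma, adjusted p = 0.180) and against EfCtrl -0.70 (limma, adjusted p = 0.176). Without ECtrl replicate 2 it was -0.78 and passed (limma, adjusted p = 0.0379), and without the library labelled E3KO replicate 1 it was -0.66 (limma, adjusted p = 0.164).

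*Plau* (chr14:20836662-20843388, plus strand), the most abundant of the 9, did not differ beyond the spread of its libraries. It measured 956, 1029 and 1024 FPKM in ECtrl, 1028, 1032 and 919 in EfCtrl and 839, 1078 and 1000 in E3KO. The E3KO libraries bracketed the whole control range. The log2 difference was -0.04 with a 95% interval of -0.28 to 0.20 (limma, adjusted p = 0.819). *Plau* exceeded *Plat* in 9 of 9 libraries.

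**Figure D2:**
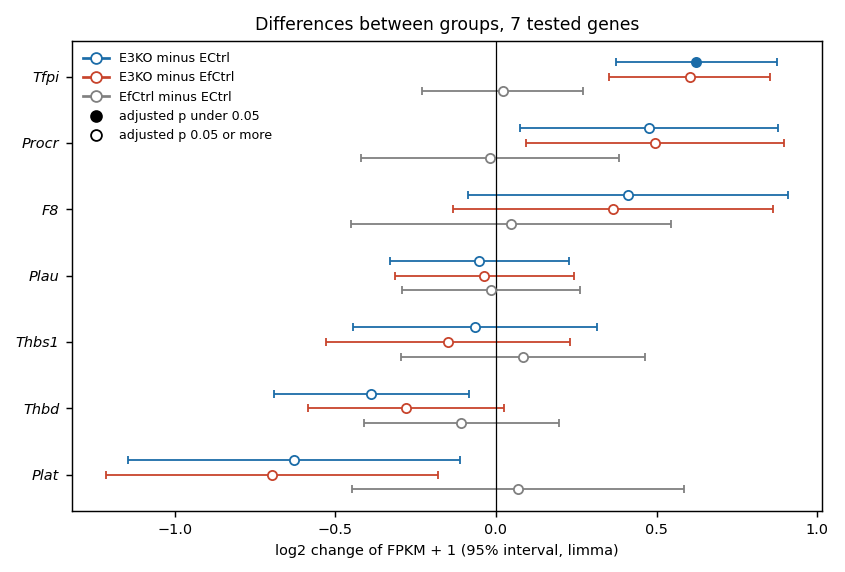
Differences in log2(FPKM + 1) between groups for the 7 tested genes, with 95% intervals from limma; filled points have an adjusted p under 0.05. *Tfpi* against ECtrl (0.62) is the filled point, the intervals of *Tfpi*, *Procr* and *Plat* exclude 0 against either control, and those of EfCtrl against ECtrl span 0 for all 7 genes.

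Across the 7 tested genes, 1 was called higher and 0 lower in E3KO against the mean of both controls, beside 4.8% of all 10605 tested genes (1.54% higher and 3.26% lower). At an unadjusted p under 0.05 the count was 4 of 7, beside 23.8% of all genes. Against ECtrl 1 of 7 was called, higher, beside 2.25% of all genes (0.82% higher and 1.43% lower), and 4 of 7 had an unadjusted p under 0.05, beside 20.1%. Against EfCtrl 0 of 7 were called by limma, beside 0.952% (0.368% higher and 0.585% lower), with 3 of 7 at an unadjusted p under 0.05, beside 17.7%. These comparisons share the E3KO libraries, and their values are set side by side only. The E3KO libraries lay outside the control range for 3 of the 7 tested genes, 2 above and 1 below, and for neither *Vwf* nor *F3*. Among all tested genes 16.6% did so, 5.18% above and 11.5% below. Without the library labelled E3KO replicate 1 it was 4 of the 7 tested genes, with *F8* added, beside 26.6% of all tested genes (10.5% above and 16.1% below). The median log2 difference of the 7 genes was -0.04, beside -0.08 for all tested genes. Between EfCtrl and ECtrl 0 of 7 genes were called by limma, beside 0.0% of all genes, and 0 of 7 reached an unadjusted p under 0.05, beside 1.84%.

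The group FPKM that the authors give beside the libraries are on a slightly different scale. Their median ratio to the mean of the library values was 1.17 in E3KO, 1.08 in ECtrl and 1.07 in EfCtrl. On these group values, which have no replicates, E3KO minus the mean of the controls was 0.75 for *Tfpi*, 0.60 for *Procr* and 0.54 for *F8*. It was -0.20 for *Thbd*, -0.54 for *Plat*, -0.52 for *Vwf* and -0.44 for *F3*. *Plau* at 0.08 and *Thbs1* at 0.01 were the genes whose sign turned, and the median of all tested genes was 0.05.

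The other genes of the pathway were taken as 58 listed genes in 6 lists. A locus was found for 57, of which 27 passed the minimum. In E3KO against the mean of both controls, 3 of 27 were called higher and 3 lower, beside 1.54% and 3.26% of all tested genes, with a median of -0.01 beside -0.08 for all genes. *Tfpi2*, a Kunitz-type protease inhibitor related to *Tfpi*, measured 31.9, 66.4 and 42.6 FPKM in ECtrl, 43.4, 55.3 and 46.5 in EfCtrl and 187, 186 and 226 in E3KO. All E3KO libraries were far above the controls, a log2 change of 2.07 (SE 0.21, limma, adjusted p = 0.0103). *Selp* (P-selectin, stored with von Willebrand factor) measured 15.9, 33.7 and 30.6 FPKM in ECtrl, 29.2, 32.8 and 30.3 in EfCtrl and 74.2, 64.6 and 82.4 in E3KO. Again no library overlapped, and the log2 change was 1.36 (SE 0.22, limma, adjusted p = 0.0182). Against ECtrl alone *Selp* differed by 1.49 (limma, adjusted p = 0.0309). Against EfCtrl alone the difference was 1.23 and did not pass (limma, adjusted p = 0.0678). The call against both controls was lost without EfCtrl replicate 1 (limma, adjusted p = 0.0544) and without EfCtrl replicate 3 (limma, adjusted p = 0.0585). *Entpd1* (CD39, which degrades the platelet agonist ADP) was called higher, by 1.14 (limma, adjusted p = 0.0222), but its controls were not alike. It measured 53.0, 90.0 and 59.6 FPKM in ECtrl, 29.3, 27.5 and 29.1 in EfCtrl and 98.6, 75.3 and 122.2 in E3KO, so that E3KO overlapped ECtrl and not EfCtrl. Against ECtrl its difference was 0.55 (limma, adjusted p = 0.228) and against EfCtrl 1.72 (limma, adjusted p = 0.0317). The authors' group value of *Entpd1* in ECtrl is 32.6 FPKM, beside a mean of 67.5 over the ECtrl libraries, whereas the group value and the library mean are 28.6 and 28.7 in EfCtrl and 104 and 98.7 in E3KO. On the group values the controls are thus close to each other, and the level of *Entpd1* in ECtrl is uncertain.

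Lower in E3KO were a protease-activated receptor and a pair of genes of the fibrinolysis list. *F2rl1* (PAR2, a receptor cleaved by trypsin-like proteases) measured 46.9, 37.6 and 36.3 FPKM in ECtrl, 38.3, 32.7 and 45.6 in EfCtrl and 11.5, 14.0 and 7.75 in E3KO. The groups were far apart, and it fell by 1.77 on the log2 scale (SE 0.19, limma, adjusted p = 0.0109). *Serpine2* (protease nexin-1, an inhibitor of thrombin and plasminogen activators) was at 97.0 ± 8.62 FPKM (SD, n = 6) in the controls and 53.2 ± 6.65 (SD, n = 3) in E3KO, a log2 change of -0.86 (limma, adjusted p = 0.0131). *Anxa2* (annexin A2, which holds plasminogen and *Plat* protein at the cell surface) was at 548 ± 49.1 FPKM (SD, n = 6) and 374 ± 56.4 (SD, n = 3), a change of -0.56 (limma, adjusted p = 0.0451). For both, every E3KO library lay below every control. *Anxa2* was called against neither control alone. Its change was -0.61 against ECtrl (limma, adjusted p = 0.0685) and -0.51 against EfCtrl (limma, adjusted p = 0.131).

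**Figure D3:**
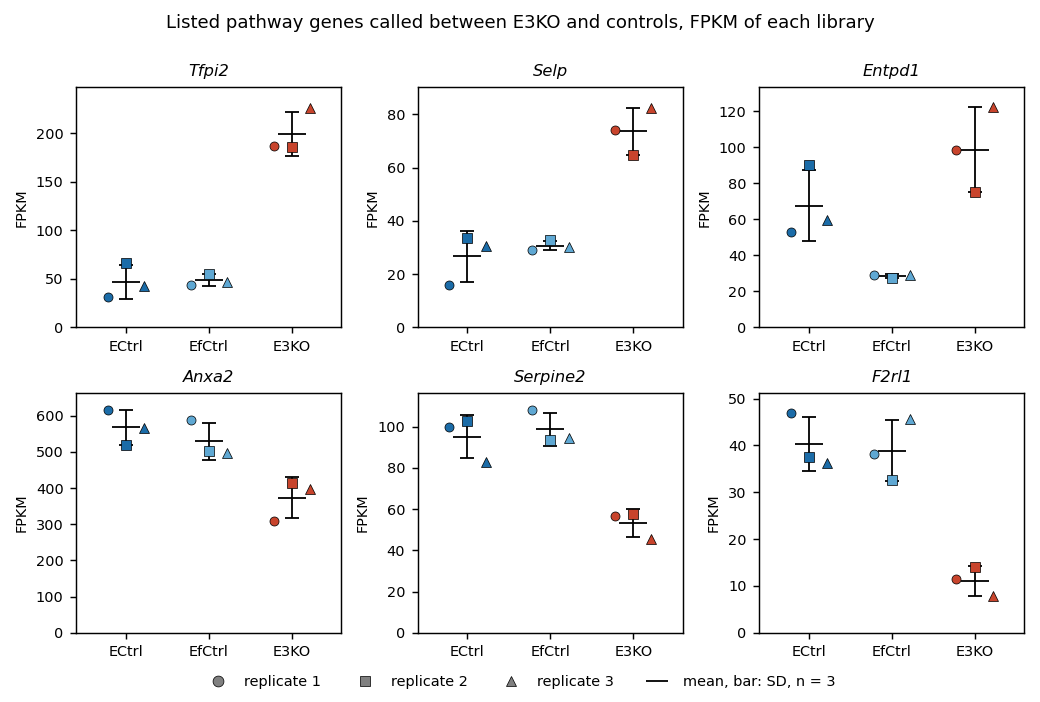
FPKM (vertical axis, from 0) of the 6 listed pathway genes called between E3KO and the mean of the controls, by library, with the mean and SD of 3 libraries in black. The groups do not overlap for *Tfpi2*, *Selp*, *Anxa2*, *Serpine2* and *F2rl1*; for *Entpd1* the E3KO libraries overlap ECtrl but not EfCtrl.

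The counts by list stand beside the same 1.54% of all tested genes called higher and 3.26% called lower. By list, 2 of 4 tested anticoagulant genes were called higher (*Tfpi2* and *Entpd1*) and 0 lower. The most abundant of them, *Anxa5* at 314 FPKM in the controls, had a log2 difference of -0.03 (limma, adjusted p = 0.860). Protein S (*Pros1*), the cofactor of activated protein C, was at 290 FPKM in the controls with a difference of -0.01 (limma, adjusted p = 0.960) and is outside the naming rule, chosen after its values were seen. Of 3 tested genes of the thrombin receptor list 1 was called, *F2rl1*, whose product is cleaved by trypsin-like proteases. The thrombin receptor *F2r* (PAR1), the highest at 132 FPKM in the controls, had a difference of -0.35 (limma, adjusted p = 0.134). For *F2rl3*, chosen after its values were seen, every E3KO library lay above the controls, but the difference of 0.84 did not pass (limma, adjusted p = 0.153). Of 5 tested genes of fibrinolysis 0 were called higher and 2 lower. Among the 11 tested genes of von Willebrand factor and factor handling, *Selp* was called, 1 of 11, and the granule protein *Cd63*, the highest over all 9 libraries at 356 FPKM in the controls, had a difference of -0.18 (limma, adjusted p = 0.520). *Mmrn1* (multimerin-1, a carrier of factor V), chosen after its values were seen, was at 373 FPKM in the controls and 245 in E3KO. Its E3KO libraries all lay below the controls, but the difference of -0.58 did not pass (limma, adjusted p = 0.1002). Of 3 tested genes of the thrombospondin list 0 were called by limma, with 2 at an unadjusted p under 0.05. The thrombospondin receptors *Cd36* (0.48, limma, adjusted p = 0.104) and *Cd47* (0.25, limma, adjusted p = 0.165) are the members of that list with the widest difference and the highest level. Most coagulation factors made by the liver lay under the minimum. In that list of 15, 1 was tested and 0 were called by limma, with 0 at an unadjusted p under 0.05. It was plasma kallikrein (*Klkb1*), whose row is shared with *Cyp4v3*, at -0.09 (limma, adjusted p = 0.709). *F5*, chosen after its values were seen, was under the minimum at 0.107 to 0.433 FPKM across the control libraries and 0.559, 1.14 and 2.20 in E3KO, and it carries the same deposited locus as *Selp*, so reads may be split between them.

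**Figure D4:**
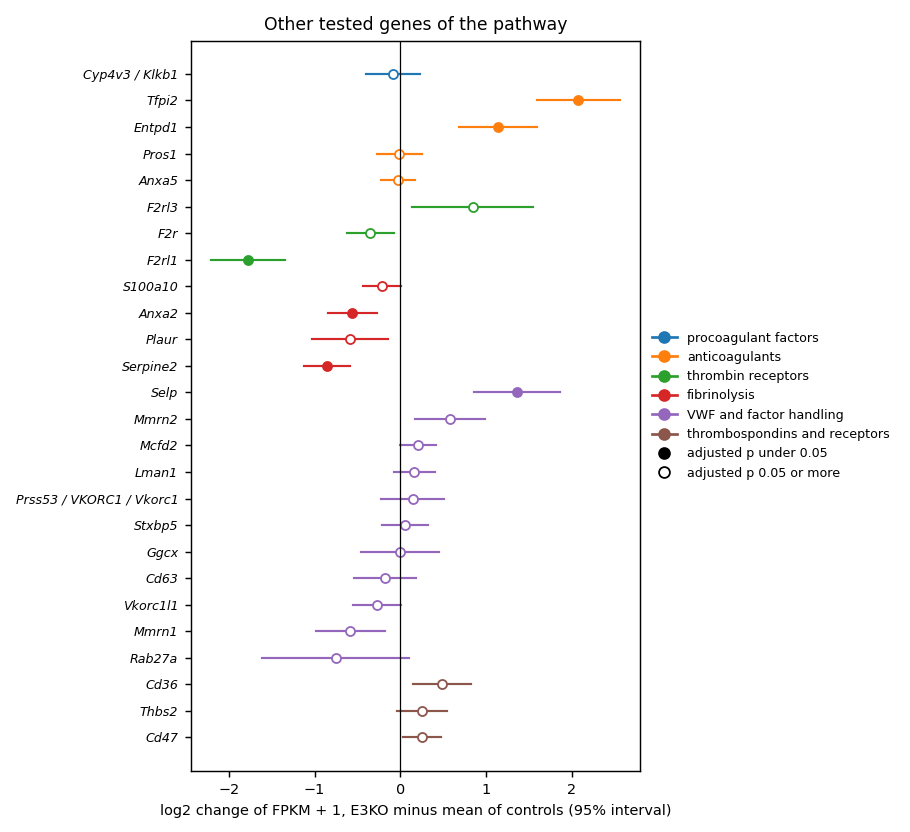
Log2 change of FPKM + 1 in E3KO against the mean of the controls (horizontal axis, with 95% intervals) for tested genes of the 6 pathway lists, coloured by list; filled points have an adjusted p under 0.05. *Tfpi2* (2.07) and *F2rl1* (-1.77) lie at the ends, and the 6 called genes are the filled points.

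Markers of other cell types and of lymphatic endothelium were also summed by library, and the sums of each list overlapped between E3KO and the controls. Macrophage and leukocyte markers, of which 3 of 10 were tested and 0 called by limma (2 at an unadjusted p under 0.05), summed to 71.4 to 246 FPKM across the control libraries and 189 to 306 in E3KO. *Cd3e*, a T cell marker, was at 0 in all 9 libraries, but the 3 tested markers, named after their values were seen, were expressed. *Lyz2* was at 28.0 to 191 FPKM across the controls and 133 to 221 in E3KO. The ranges were 12.8 to 26.8 and 17.6 to 50.6 for *Cd68*, and 18.9 to 29.8 and 26.5 to 35.5 for *Cd14*. Smooth muscle and fibroblast markers summed to 13.4 to 83.3 FPKM across the control libraries and 12.5 to 26.3 in E3KO. The 6 lymphatic endothelial markers summed to 2179 to 2862 FPKM across the control libraries and 2011 to 2319 in E3KO. Most of that sum was *Lyve1* (these markers are named after their values were seen), at 1534 to 2050 FPKM across the controls and 1513 to 1728 in E3KO. Of the 6, 3 were called lower, beside 3.26% of all tested genes. *Prox1* was at 117 to 158 FPKM in control libraries and 58.1 to 79.2 in E3KO (log2 change -0.99, limma, adjusted p = 0.0131), *Reln* changed by -0.96 (limma, adjusted p = 0.0167) and *Ccl21a* by -1.65 (limma, adjusted p = 0.0381). Of the 8 lung epithelial markers 2 were tested and 0 called by limma (0 at an unadjusted p under 0.05). The part of these cells in the differences of *Plat*, *Thbd*, *Procr* and *Tfpi* was not tested.

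The genes with profiles most like those of the 7 tested genes were found by the root mean square distance between centred log2(FPKM + 1) profiles over the 9 libraries, among all 10605 tested genes. *Tfpi* was nearest to *Emcn* (endomucin, an endothelial sialomucin) at a distance of 0.07, then to *Klhl26* at 0.07 and *Serpinb6b* at 0.08. *Emcn* is the pan-endothelial marker that was called higher. *Procr* was nearest to *Sipa1l2*, *Slc23a2* and *Mt2*, at 0.08 to 0.09. *Thbd* was nearest to *Fam84b*, *Spty2d1* and *Zfp521*, at 0.04 to 0.05, and *Plat* to *Nupr1*, *Agrn* and *Flot1*, at 0.10 to 0.14. *F8* was nearest to *Gcnt2*, *Ada* and *Tctn3*, at 0.10 to 0.13. The flatter genes had *Nipbl*, *Thrb* and *Atad2b* for *Thbs1* and *2010011I20Rik*, *Dhx57* and *Fam168b* for *Plau*. No listed coagulation gene was among these 21 neighbours. Only the 7 tested members and 27 other pathway genes stood among the 10605 searched, so this absence says little of whether they vary together.

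**Figure D5:**
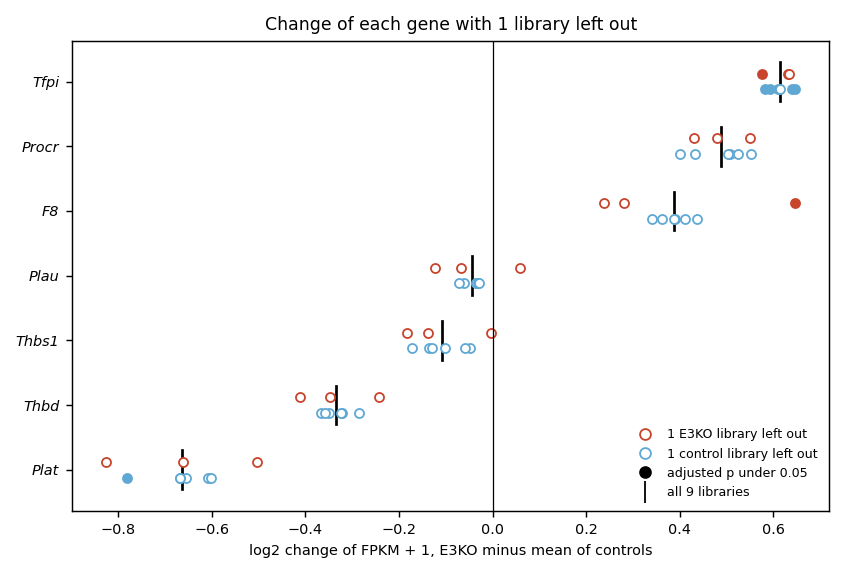
Log2 change in E3KO against the mean of the controls for each of the 7 tested genes with 1 library left out at a time (red, an E3KO library; blue, a control library); black ticks show all 9 libraries and filled points an adjusted p under 0.05. *Tfpi* stays between 0.58 and 0.65, *F8* reaches 0.65 without the library labelled E3KO replicate 1, and *Plat* -0.78 without ECtrl replicate 2.

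Leaving out 1 library at a time kept the sign of 6 of the 7 differences against both controls. The range was 0.58 to 0.65 for *Tfpi*, 0.40 to 0.55 for *Procr*, 0.24 to 0.65 for *F8*, -0.41 to -0.24 for *Thbd* and -0.82 to -0.50 for *Plat*. *Thbs1* stayed between -0.18 and -0.003, and *Plau* crossed 0, from -0.12 to 0.06. Without the library labelled E3KO replicate 1, 4 of the 27 other pathway genes were called in place of 6. *Tfpi2* (2.12), *Selp* (1.35), *F2rl1* (-1.81) and *Serpine2* (-0.90) passed, with adjusted p (limma) of 0.0270, 0.0440, 0.0270 and 0.0290. *Entpd1* (1.12, limma, adjusted p = 0.0530) and *Anxa2* (-0.43, limma, adjusted p = 0.0734) did not, and the *Anxa2* call was lost whichever of the 9 libraries was left out.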

How the data were processed

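RNA-seq was carried out on 9 libraries, 3 for each of ECtrl, EfCtrl and E3KO, and groups and replicate numbers were taken from the sample labels. The authors aligned paired reads to mm10 with TopHat2 and Bowtie, estimated FPKM with Cufflinks (version 1.0.3 per the submitters' processing notes), merged transcript models with Cuffmerge and compared groups with Cuffdiff. The deposited FPKM of each library were used. The FPKM of each group are printed only as the authors' values, and the authors' fold changes, p-values and q-values were not used. Strandedness and read totals are not given in the sources used here, so the depth is unknown and counting intervals could not be set.

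Of 37104 loci, 3749 whose symbol stood at several loci and 2 without a library value were left out, which left 33353. No column belonged to another series. For the 10605 genes whose mean reached 2 FPKM in at least 1 group, a pseudocount of 1 was added, log2 was taken, and 1 linear model of the 3 groups was estimated over all 9 libraries in R 4.3.3 with limma 3.58.1. E3KO was contrasted with the mean of both controls and with each control, and EfCtrl with ECtrl. P-values were adjusted by Benjamini-Hochberg over all 10605 genes, and a gene was called at an adjusted p under 0.05. A log2 change on this scale understates the change of low genes. For single genes the 84 splits of 3 E3KO and 6 control libraries also gave an exact permutation p, two-sided. Since each library is an isolation from pooled mice, p-values measure the spread between isolations. On simulated data of the E3KO contrast, made from the 10605 genes, limma called 10 of 67 genes changed by 0.5 (log2), 48 of 67 changed by 1, 60 of 66 changed by 2 and 6 unchanged genes. The simulation gave each gene the same spread in all groups. In the data, log2 differences between libraries had an SD of 0.577 to 0.779 within the controls. It was 0.919 and 0.929 between E3KO replicate 1 and replicates 2 and 3, so these rates may not hold for the real contrast.

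The members and lists were chosen with earlier results of these data known. The text names the 9 genes, the targeted genes, every pathway gene called, the highest and the most changed tested gene of each list, and the 3 nearest profiles of each tested member. A gene that this rule names and a marker are not reported here, though the list counts include them. Promoter windows came from RefSeq (GRCm38.p6), for 4 of the 9 genes. Alternatives changed the pseudocount (0.1), the minimum (none or 5 FPKM), the scaling, the variance model, the replicate block and the libraries used. Figures were drawn with matplotlib 3.10.9.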

Additional observations from a re-analysis of the deposited data

Results flagged for a closer look

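In ECtrl replicate 1 *Thbd* was at 57.7 FPKM, the highest of the 6 control libraries, and its gap to the next library took 0.664 of the range of the controls. In ECtrl replicate 2 *Plat* was at 36.4 FPKM, the lowest of the 6 control libraries, with a gap of 0.674 of the range. Both shares exceed Dixon's 95% critical value for 6 values. The 9 genes were each examined once in this way, and chance flags about 1 in 20 such groups.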

How the results depend on the processing

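Against the mean of both controls, 1 of the 7 genes was called with all libraries, and 0 to 2 were called when 1 library was left out. The count was 0 without EfCtrl replicate 3 and without E3KO replicate 3, and 2 without ECtrl replicate 2 (*Plat* joined *Tfpi*) and without E3KO replicate 1 (*F8* joined it). Over 15 alternatives the *Tfpi* difference was 0.58 to 0.69 and its adjusted p (limma) 0.00832 to 0.0759, under 0.05 in 13. Against ECtrl the count of 1 became 0 with a replicate block and with the 2 groups alone, and was 0 to 1 with a library left out. Against EfCtrl the count of 0 became 1 (*Tfpi*) with a minimum of 5 FPKM and with a mean-variance trend, and was 0 to 1 with a library left out. The 3 genes outside the control range became 4 without E3KO replicate 1, where the share of all tested genes went from 16.6% to 26.6%. They also became 4 without ECtrl replicate 2, for which the share of all tested genes was not computed, so that count has no background. The count of 6 other pathway genes was 1 to 6 with a library left out, with 3 without EfCtrl replicate 1, 3 without EfCtrl replicate 3 and 1 without E3KO replicate 3. Where a call was lost, the cause was not tested.

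Centring each library on its median turned the sign of *Thbs1* against ECtrl (0.006) and of *Plau* against both controls (0.027), ECtrl (0.02) and EfCtrl (0.034). With a library left out, the difference of EfCtrl from ECtrl ran from -0.049 to 0.144 for *F8*, -0.048 to 0.201 for *Thbs1*, -0.044 to 0.082 for *Tfpi*, -0.189 to 0.11 for *Procr*, -0.167 to 0.192 for *Plat* and -0.05 to 0.039 for *Plau*. *Thbs1* against ECtrl ran from -0.197 to 0.052, and *Plau* from -0.122 to 0.058 against both controls, -0.13 to 0.05 against ECtrl and -0.115 to 0.066 against EfCtrl. Neither *Thbs1* nor *Plau* was called under these settings.

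Same-numbered libraries of different groups had correlations of -0.04 to 0.12 between their deviations from the group means, and differently numbered ones -0.215 to 0.079. The labels do not say whether isolations were matched. With 3 libraries in a group these correlations cannot settle whether the replicate numbers pair the samples. With a replicate block the count of all genes called went from 509 to 202 against both controls, from 239 to 1 against ECtrl and from 101 to 1 against EfCtrl, and *Tfpi* against ECtrl was at 0.62 (limma, adjusted p = 0.0796). Without a minimum on low values 95 genes were called against ECtrl and 17 against EfCtrl, and with the 2 groups alone 0 by limma and 27. With a library left out the counts over all genes were 9 to 412, 0 to 173 and 1 to 223, and the first was 9 without E3KO replicate 3, 289 without E3KO replicate 2, 338 without ECtrl replicate 1 and 145, 215 and 104 without EfCtrl replicates 1, 2 and 3. The permutation count of 2 genes at the smallest p was the same with a pseudocount of 0.1. That p is not adjusted, and the share of all tested genes that reach it was not computed, so the count has no background. In the simulation, which gave all groups the same spread, 14.9% of genes changed by 0.5 on the log2 scale were called.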
